A study of Saccharomyces cerevisiae with 18 samples.

Results

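The 46 genes described here are the nuclear genes of the tricarboxylic acid (TCA) cycle and of oxidative phosphorylation in *Saccharomyces cerevisiae*, chosen by name as enzymes and complex subunits. The rule used no measured value, but the set was chosen with earlier results of these data known. They are 46 of the 7127 gene IDs in the count table, and all 46 were among the 5757 genes that passed the filter on low counts. The strain was BY4741 (MATa *his3Δ1 leu2Δ0 met17Δ0 ura3Δ0*), used as wild type (wt) and as *snf2Δ*::KanMX4 and *snf5Δ*::KanMX4 strains of the deletion collection, so that every group also lacked the 4 marker genes of the background. Cells were in log phase in the rich glucose medium YPD, or had spent 30 min in YPD supplemented with 3 mM cysteine (+Cys), with 3 libraries of rRNA-depleted RNA in each of the 6 groups. Snf2 is the ATPase of the Swi-Snf nucleosome remodeler and Snf5 is a core subunit of the same complex. The study asked how this complex shapes sulfur metabolism, and the +Cys arm asked whether added cysteine changes transcription in each strain.

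The TCA cycle oxidizes acetyl groups in the mitochondrial matrix and hands electrons to the respiratory chain. In yeast, succinate dehydrogenase feeds ubiquinone, the bc1 complex passes electrons to cytochrome c, cytochrome c oxidase reduces oxygen, and the ATP synthase uses the resulting proton gradient. *S. cerevisiae* ferments glucose and represses many of these genes while glucose is plentiful. The Hap2/3/4/5 complex, which binds CCAAT, and the heme-responsive factor Hap1 are the known activators of many of them. A few core subunits are encoded in mitochondrial DNA and are not among the 46 genes.

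The 18 libraries held 1329986 to 4845830 reads in genes, and the 46 genes took 0.344 to 0.81% of them, with no count below 13 in any library. Reads that mapped to several places made up 71.4% of the library of *snf5Δ* YPD replicate 3, 53.5% of *snf2Δ* YPD replicate 2 and 44.6% of *snf2Δ* YPD replicate 3. *SNF2* stood at 1.23 to 5.22 CPM (a gene's share of its library's counts, scaled by the trimmed mean of M-values, TMM) in the *snf2Δ* libraries, against 187 to 253 in wt. *SNF5* stood at 0.00 to 0.274 CPM in the *snf5Δ* libraries, against 45.5 to 57.8 in wt. *LEU2*, *URA3* and *MET17* were at 0 in every library, as the strain background sets, and mitochondrially encoded transcripts made up 4.47 to 9.49% of genic counts, so mitochondrial DNA was present in all of them. The labels do not say whether the 3 libraries of a group came from separate cultures, so the p-values measure the spread between these libraries. All values come from bulk cultures, where fewer cells with a transcript and less of it per cell cannot be told apart.

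In YPD the 46 genes were mostly higher in *snf5Δ* than in wt, and 11 of the 12 ATP synthase genes were among those that rose. In edgeR's quasi-likelihood test, with Benjamini-Hochberg adjustment over all 5757 genes and an adjusted p under 0.05 as the call, 24 of the 46 rose and 1, *CYC1*, fell. Over all genes tested 12% were called higher and 15% lower. The median log2 fold change of the 46 genes was 0.50, against -0.01 over all genes, and 40 of the 46 values were positive. The changes were modest in size, with 3 of the 46 past 2-fold and 0 past 4-fold, and the matching shares over all genes were not counted. Without the 3 libraries in which over 40% of reads mapped to several places, 24 of the 46 were called higher and 0 lower. Over all genes that fit called 660 higher and 647 lower. Scaling by library totals instead of TMM moved the median of all genes from -0.01 to 0.34 on the log2 scale in this comparison. The 46 genes then had a median of 0.85 and 36 of them were called higher, beside 33.8% of all genes called higher and 6.37% lower. Of the 25 calls, 16 held whichever library was left out.

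Stretches before the start codon are shown for the 4 genes with the lowest p-values of the 46 in this comparison. Each of them carries the letters CCAAT. The sequences run 5′ to 3′ on the gene's strand, from base 240 to base 121 before the start codon, in the R64 assembly from RefSeq. Capitals mark the match to CCAAT, which reads ATTGG where it lies on the opposite strand.
*QCR2*, chrXVI:919141-919260, plus strand: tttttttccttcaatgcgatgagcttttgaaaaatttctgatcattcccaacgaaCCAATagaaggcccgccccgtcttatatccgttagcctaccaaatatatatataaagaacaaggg
*ATP14*, chrXII:722494-722613, minus strand: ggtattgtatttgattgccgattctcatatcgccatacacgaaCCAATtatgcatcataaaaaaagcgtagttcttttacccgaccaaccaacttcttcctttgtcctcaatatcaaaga
*ATP20*, chrXVI:599630-599749, plus strand: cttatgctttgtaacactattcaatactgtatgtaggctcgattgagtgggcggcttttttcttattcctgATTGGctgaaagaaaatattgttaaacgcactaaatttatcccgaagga
*ATP16*, chrIV:442789-442908, plus strand: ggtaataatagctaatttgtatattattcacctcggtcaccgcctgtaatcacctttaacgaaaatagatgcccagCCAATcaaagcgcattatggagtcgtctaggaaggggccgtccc

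CCAAT, searched on both strands in the 300 bases before the start codon, was found in 38 of the 46 genes (82.6%) and in 2509 of 6001 nuclear protein-coding genes (41.8%). All 4 succinate dehydrogenase genes and all 12 ATP synthase genes had a match, as did 8 of 9 cytochrome c oxidase genes, 7 of 9 bc1 genes and 7 of 10 TCA cycle genes, while neither cytochrome c gene had one. In *snf5Δ* in YPD, 21 of the 38 genes with a match were called higher (median log2 fold change 0.56), and 3 of the 8 without one (median 0.20). In +Cys these counts were 29 of 38 (median 0.86) and 4 of 8 (median 0.40). The ATP synthase genes, all with a match, supplied 11 of the 21 calls in YPD and 12 of the 29 in +Cys. The split by match was therefore mixed with the complex a gene belongs to, and the part of CCAAT was not tested. Over the other nuclear coding genes tested, the shares called higher were 12.3% of 2291 genes with a match and 11.7% of 3176 without in YPD, and 9.73% and 9.35% in +Cys. The full Hap1 motif, on either strand, was found in 1 of the 46 genes, *QCR6*, with 2 matches, and in 8 of the 6001 genes (0.133%). A match of letters is a description of the sequence and does not show that a factor binds there.

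**Figure D1:**
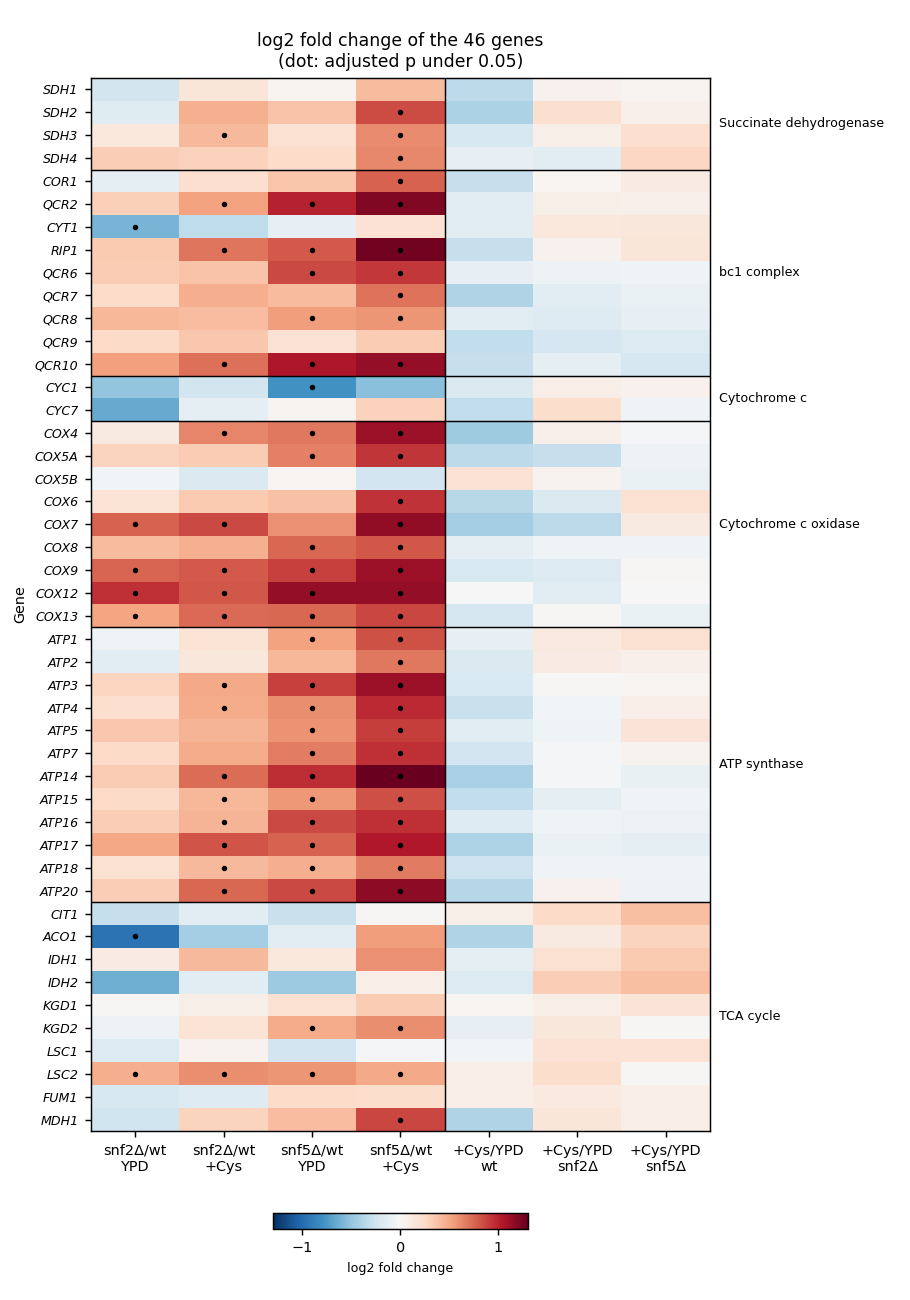
Heat map of the log2 fold change of each of the 46 genes (rows, grouped by complex) in the 4 mutant against wt comparisons and the 3 +Cys against YPD comparisons (columns), with a dot where the adjusted p was under 0.05. The *snf5Δ* columns hold 25 dots in YPD and 33 in +Cys, the *snf2Δ* columns 7 and 18, and the +Cys columns none.

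Of the bc1 complex, 5 of 9 genes rose in *snf5Δ* in YPD, and the core subunit gene *QCR2* (YPR191W) had the lowest p of the 46. *QCR2* stood at 80.1, 82.0 and 96.1 CPM in the 3 wt libraries and at 156, 191 and 169 CPM in the 3 *snf5Δ* libraries. The groups did not overlap, and each *snf5Δ* library lay above the highest wt library by more than the wt libraries differed among themselves. Its log2 fold change was 1.00 ± 0.14, adjusted p = 8.58e-05, where the value after ± is the standard error, as for the fold changes that follow. *QCR10* (YHR001W-A), a small accessory subunit, had 18.2, 31.0 and 34.7 CPM in wt and 48.8, 67.1 and 58.1 in *snf5Δ*, a log2 fold change of 1.05 ± 0.20, adjusted p = 0.000914. The lowest wt value was that of replicate 1, and all 3 *snf5Δ* values were above all 3 wt values. *RIP1* (YEL024W), the Rieske iron-sulfur protein, had 38.4, 39.3 and 57.7 CPM in wt and 77.6, 95.0 and 59.4 in *snf5Δ* (0.80 ± 0.19, adjusted p = 0.00455), with wt replicate 3 just under *snf5Δ* replicate 3. The accessory subunits *QCR6* (YFR033C) and *QCR8* (YJL166W) also rose, by 0.86 and 0.55 on the log2 scale, and the *QCR8* call was lost without wt replicate 1, *snf5Δ* replicate 2 or *snf5Δ* replicate 3. No call was made for the core subunit *COR1* (YBL045C) (0.36 ± 0.18), cytochrome c1 *CYT1* (YOR065W) (-0.10 ± 0.19), *QCR7* (YDR529C) (0.41 ± 0.18) or *QCR9* (YGR183C) (0.19 ± 0.21).

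Of the cytochrome c oxidase genes, 6 of 9 rose in *snf5Δ* in YPD. *COX12* (YLR038C), a small peripheral subunit, had the largest log2 fold change of the 46, at 1.14 ± 0.22, adjusted p = 0.00118. Its levels were 25.4, 34.2 and 31.4 CPM in wt and 60.1, 84.5 and 54.3 in *snf5Δ*, with no overlap between the groups. *COX9* (YDL067C) had 36.5, 52.7 and 55.8 CPM in wt and 77.1, 96.9 and 95.1 in *snf5Δ* (0.89 ± 0.17, adjusted p = 0.000975), again with every *snf5Δ* library above every wt library. This call depended on the counting, since *COX9* was not called on the RSEM expected counts or on TPM. The others that rose were *COX4* (YGL187C), *COX8* (YLR395C), *COX13* (YGL191W) and *COX5A* (YNL052W), with log2 fold changes of 0.69, 0.74, 0.75 and 0.65. *COX4* lost its call without *snf5Δ* replicate 2 and on RSEM expected counts. The genes without a call were *COX6* (YHR051W) at 0.38 ± 0.18, *COX7* (YMR256C) at 0.59 ± 0.22 and *COX5B* (YIL111W) at 0.03 ± 0.21.

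Of the ATP synthase genes, 11 of 12 rose in *snf5Δ* in YPD, and the 12 log2 fold changes ran from 0.43 to 0.96 with a median of 0.63. *ATP14* (YLR295C), a stator stalk subunit, had 28.3, 33.9 and 30.7 CPM in wt and 65.5, 58.1 and 57.5 in *snf5Δ* (0.96 ± 0.15, adjusted p = 0.000142), and the groups were far apart relative to the spread within either. *ATP17* (YDR377W), an Fo subunit, had 75.6, 109 and 133 CPM in wt and 148, 196 and 196 in *snf5Δ* (0.76 ± 0.20, adjusted p = 0.00971), with *snf5Δ* replicate 1 closest to the wt range. Among the F1 genes, the gamma subunit gene *ATP3* (YBR039W), the delta subunit gene *ATP16* (YDL004W), the epsilon subunit gene *ATP15* (YPL271W) and the alpha subunit gene *ATP1* (YBL099W) rose by 0.89, 0.85, 0.57 and 0.52 on the log2 scale. The beta subunit gene *ATP2* (YJR121W), which took more reads than any other of the 46, was the exception at 0.43 ± 0.16, adjusted p = 0.0635. The stator genes *ATP4* (YPL078C), *ATP5* (YDR298C) and *ATP7* (YKL016C) rose by 0.60, 0.58 and 0.66, and the Fo genes *ATP18* (YML081C-A) and *ATP20* (YPR020W) by 0.47 and 0.86. The calls for *ATP1*, whose groups overlapped, and *ATP5* were lost without wt replicate 1, wt replicate 2 or *snf5Δ* replicate 2, and those for *ATP7* and *ATP18* without *snf5Δ* replicate 2. *ATP15* was not called on RSEM expected counts or by limma on TPM, and *ATP18* was not called on RSEM expected counts.

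Of the TCA cycle genes 2 of 10 rose in *snf5Δ* in YPD, and their median log2 fold change was 0.16. *LSC2* (YGR244C), the beta subunit of succinyl-CoA ligase, had 83.4, 101 and 102 CPM in wt and 129, 156 and 141 in *snf5Δ* (0.57 ± 0.13, adjusted p = 0.00341). Its partner *LSC1* (YOR142W), the alpha subunit of the same enzyme, was at -0.25 ± 0.12 with no call. *KGD2* (YDR148C), the E2 subunit of alpha-ketoglutarate dehydrogenase, rose by 0.49, a call lost without *snf5Δ* replicate 2, while the E1 subunit gene *KGD1* (YIL125W) was at 0.20 ± 0.16. The log2 fold changes of citrate synthase *CIT1* (YNR001C) and aconitase *ACO1* (YLR304C) were -0.29 ± 0.32 and -0.14 ± 0.24. Those of the NAD-dependent isocitrate dehydrogenase genes *IDH1* (YNL037C) and *IDH2* (YOR136W) were 0.13 ± 0.26 and -0.47 ± 0.31. Fumarase *FUM1* (YPL262W) was at 0.24 ± 0.15 and the mitochondrial malate dehydrogenase *MDH1* (YKL085W) at 0.40 ± 0.21. Succinate dehydrogenase, which belongs to both the cycle and the respiratory chain, had no call. Its log2 fold changes were 0.03 for the flavoprotein *SDH1* (YKL148C), 0.37 for the iron-sulfur subunit *SDH2* (YLL041C), and 0.19 and 0.24 for the membrane subunits *SDH3* (YKL141W) and *SDH4* (YDR178W).

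**Figure D2:**
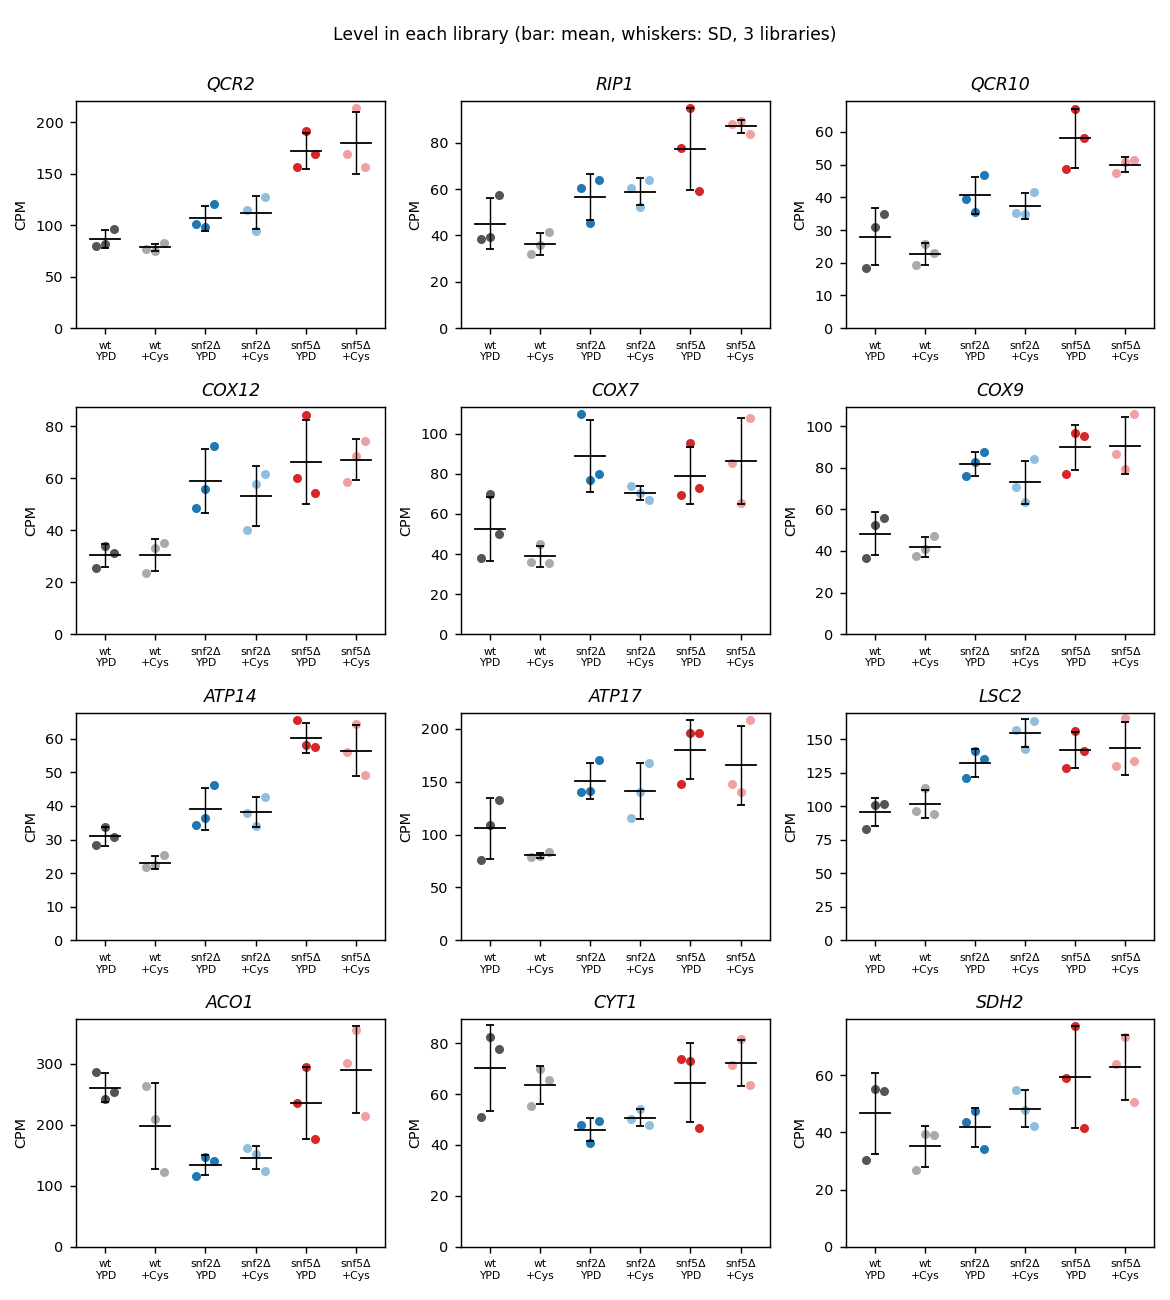
Level of 12 genes in CPM (vertical axis, from 0) in each library of the 6 groups (horizontal axis), where points are libraries, bars are means and whiskers are SDs over 3 libraries. *QCR2*, *COX12* and *ATP14* were higher in all *snf5Δ* YPD libraries than in any wt YPD library, and *ACO1* was lower in all *snf2Δ* YPD libraries than in any wt YPD library.

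In +Cys the same comparison gave more calls, 33 of 46 higher in *snf5Δ* and 0 lower, beside 9.73% called higher and 11.3% called lower over all genes. The 24 genes that rose in YPD were all among the 33, and the median log2 fold change of the 46 genes was 0.82, against -0.02 over all genes. In all, 11 of the 46 were past 2-fold, and the matching share over all genes was again not counted. The groups did not overlap for 34 of the 46 genes, against 24 in YPD, and over all genes they did not overlap for 37.1% in +Cys and 39.8% in YPD. The YPD and +Cys comparisons use different libraries, but same-numbered YPD and +Cys libraries of a strain deviated together, so the second is no independent repeat of the first.

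All 12 ATP synthase genes rose in *snf5Δ* in +Cys, with log2 fold changes of 0.68 to 1.29, *ATP2* included (0.69 ± 0.16, adjusted p = 0.0069). *ATP14* stood at 21.8, 22.3 and 25.3 CPM in wt and at 55.9, 64.4 and 49.1 in *snf5Δ*, and had the largest log2 fold change of the 46 (1.29 ± 0.15, adjusted p = 7.81e-06). *RIP1* followed at 31.9, 36.1 and 41.4 CPM in wt and 88.0, 89.4 and 83.9 in *snf5Δ* (1.26 ± 0.18, adjusted p = 0.00012). *QCR2* stood at 77.1, 75.1 and 82.6 CPM in wt and 169, 214 and 157 in *snf5Δ* (1.20 ± 0.14, adjusted p = 1.36e-05), and for these 3 genes no *snf5Δ* library came near the wt range. *COR1* and *QCR7* were now called as well, at 0.77 and 0.71, which left *CYT1* and *QCR9* as the bc1 genes without a call. Of the cytochrome c oxidase genes 8 of 9 rose, all but *COX5B* (-0.25 ± 0.20), with the largest log2 fold changes at 1.15 for *COX7*, 1.14 for *COX12*, 1.12 for *COX4* and 1.11 for *COX9*. *COX9* was again not called on RSEM expected counts. *SDH2*, *SDH3* and *SDH4* rose by 0.84, 0.62 and 0.62. The *SDH2* libraries read 27.0, 39.3 and 39.0 CPM in wt and 64.1, 73.6 and 50.7 in *snf5Δ*, and that call was lost without wt replicate 1 or without *snf5Δ* replicate 1 or 2. The *SDH4* call was lost without wt replicate 1 or 3, without *snf5Δ* replicate 1 or 2, and on RSEM expected counts. *QCR8*, at 0.57, kept its call in 1 of the 6 fits with a library left out, the one without *snf5Δ* replicate 2. *QCR7* lost its call without *snf5Δ* replicate 3 and *LSC2* without *snf5Δ* replicate 2. Of the TCA cycle genes, *MDH1* (0.87), *KGD2* (0.61) and *LSC2* (0.50) rose.

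In *snf2Δ* fewer of the genes moved. In YPD, 5 of 46 rose and 2 fell, with a median log2 fold change of 0.23 against 0.02 over all genes. Over all genes 7.89% were called higher and 11.8% lower, so the share of the 46 that rose was near the background. This count changed more with the settings than those of the other mutant against wt comparisons. It was 18 higher and 0 lower when scaled by library totals, which moved the median of all genes to 0.26 and called 20.9% of all genes higher and 6.17% lower. Without the libraries in which over 40% of reads mapped to several places 1 gene was called, but this leaves 1 *snf2Δ* library, assumed to vary like the other groups, and says little of stability. Leaving out wt replicate 1, *snf2Δ* replicate 1 or *snf2Δ* replicate 2 gave 4, 3 and 4 calls.

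Of the genes that rose in *snf2Δ* in YPD, 4 encode subunits of cytochrome c oxidase. *COX12* had 48.7, 56.0 and 72.6 CPM in *snf2Δ*, all above the wt libraries given above (0.95 ± 0.22, adjusted p = 0.00585). *COX9* had 75.9, 82.6 and 87.4 CPM in *snf2Δ*, also all above wt (0.76 ± 0.17, adjusted p = 0.00426). *COX7* had 37.8, 69.7 and 49.9 CPM in wt and 109.7, 76.9 and 80.0 in *snf2Δ* (0.76 ± 0.22, adjusted p = 0.0209), a call that was lost without wt replicate 1, wt replicate 3 or *snf2Δ* replicate 1. *COX13* (0.51) and *LSC2* (0.47) completed the 5. *LSC2* had 121, 141 and 135 CPM in *snf2Δ*, and its call was lost without wt replicate 1 or *snf2Δ* replicate 2. Of the 5 genes, *COX9* and *COX12* kept the call when any single library was left out, and in the fit with 1 *snf2Δ* library their log2 fold changes were 0.68 and 0.71, with no call. *COX9* was not called on RSEM expected counts or by limma on TPM, *COX12* was not called by limma over all genes, and 0 of the 7 calls held under every setting.

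Aconitase and cytochrome c1 were the genes that fell in *snf2Δ* in YPD. *ACO1*, whose product turns citrate into isocitrate and carries an iron-sulfur cluster, stood at 287, 241 and 254 CPM in wt and at 115, 147 and 141 in *snf2Δ*, with no overlap (-0.96 ± 0.25, adjusted p = 0.0108). In *snf5Δ* the same gene stood at 236, 295 and 176 CPM and overlapped the wt range. *CYT1*, the heme-bearing cytochrome c1 of the bc1 complex, had 50.8, 82.3 and 77.6 CPM in wt and 48.0, 40.8 and 49.2 in *snf2Δ* (-0.61 ± 0.19, adjusted p = 0.0318). The *ACO1* call was lost without *snf2Δ* replicate 1, and the *CYT1* call without wt replicate 2, wt replicate 3, *snf2Δ* replicate 1 or *snf2Δ* replicate 2. Neither gene was called lower when libraries were scaled by their totals.

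In +Cys 18 of the 46 genes rose in *snf2Δ* and 0 fell, beside 7.73% called higher and 11.6% called lower over all genes, with a median log2 fold change of 0.42 against 0.02. They were 8 of 12 ATP synthase genes, 5 of 9 cytochrome c oxidase genes, 3 of 9 bc1 genes (*QCR2*, *RIP1* and *QCR10*), *SDH3* and *LSC2*. The largest change was that of *COX7*, with 36.0, 44.9 and 35.5 CPM in wt and 74.1, 70.3 and 67.1 in *snf2Δ* (0.86 ± 0.22, adjusted p = 0.0112). This call was lost without wt replicate 3 and on RSEM expected counts. *ATP17* had 78.7, 79.5 and 83.1 CPM in wt and 116, 140.3 and 168 in *snf2Δ* (0.81 ± 0.20, adjusted p = 0.00883). *COX12* had 23.4, 33.1 and 35.0 CPM in wt and 40.2, 58.0 and 61.7 in *snf2Δ* (0.80 ± 0.22, adjusted p = 0.0145), the closest of these 3 to an overlap, and its call was lost without wt replicate 1 or *snf2Δ* replicate 3. The calls for *RIP1* (0.70), *ATP14* (0.73), *ATP17*, *ATP20* (0.75), *COX13* (0.74) and *LSC2* (0.61) held under every setting tried and whichever library was left out. Others were near the threshold, and the *SDH3* call (adjusted p = 0.0499) held in 1 of the 6 fits with a library left out and those for *ATP3* and *ATP18* in 2 of 6 each. The calls for *ATP4*, *ATP15*, *ATP16*, *COX4* and *QCR10* held in 3 of 6 each. The number of calls fell to 10 without wt replicate 2 and to 8 without *snf2Δ* replicate 3. *ACO1* had 263, 209 and 123 CPM in wt and 161, 151 and 125 in *snf2Δ* in this medium (-0.45 ± 0.24), which overlapped through wt replicate 3.

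The 18 genes that rose in *snf2Δ* in +Cys were all among the 33 that rose in *snf5Δ* in +Cys. In YPD, 4 of the 5 that rose in *snf2Δ* were among the 24 that rose in *snf5Δ*, the exception being *COX7*. These comparisons share their wt libraries, so each strain's own values were set side by side above and the overlap is given as a count only. *COX9*, *COX12*, *COX13* and *LSC2* rose in all 4 mutant comparisons. On RSEM expected counts, however, *COX9* was called in none of the 4, and limma on TPM did not call it in *snf2Δ* in +Cys. The *COX13* call in *snf2Δ* in YPD held in 7 of 14 other settings and in 2 of 6 fits with a library left out. The genes called in none of the 4 mutant comparisons were *SDH1*, *QCR9*, *CYC7*, *COX5B*, *CIT1*, *IDH1*, *IDH2*, *KGD1*, *LSC1* and *FUM1*, 6 of them enzymes of the TCA cycle. Same-numbered YPD and +Cys libraries of a strain also deviated together, so repeated calls are not independent. The matching overlaps and recurrences over all genes were not counted. Whether repeated calls were more frequent among these genes than among genes of any kind was therefore not tested.

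The mutants were also compared with each other, which does not involve the wt libraries. In YPD, 5 of the 46 genes were higher in *snf5Δ* than in *snf2Δ* and 0 were lower, beside 1.68% called higher and 1.3% called lower over all genes. Their log2 fold changes were 0.69 for *QCR2*, 0.63 for *ATP14*, 0.61 for *ATP3*, 0.56 for *KGD2* and 0.54 for *ATP20*. In +Cys 5 genes were again higher and 0 lower, beside 1.37% and 1.16% over all genes, with log2 fold changes of 1.00 for *ACO1*, 0.68 for *QCR2*, 0.65 for *ATP1*, 0.62 for *ATP3* and 0.56 for *ATP14*. *QCR2* gave adjusted p = 0.0126 in YPD and adjusted p = 0.011 in +Cys. *ACO1* in +Cys stood at 161, 151 and 125 CPM in *snf2Δ* and 301, 354 and 213 in *snf5Δ* (1.00 ± 0.24, adjusted p = 0.0375), with no overlap. Unadjusted p-values under 0.05 were found for 21 of the 46 genes in YPD and 23 in +Cys, against 15% and 12.9% of all genes, and 41 of the 46 log2 fold changes were positive in each medium. None of the 10 calls held against every library left out. In YPD the count fell to 0 without *snf2Δ* replicate 1, *snf2Δ* replicate 2 or *snf5Δ* replicate 2, and to 1 without *snf5Δ* replicate 1. In +Cys it fell to 0 without *snf2Δ* replicate 2 or *snf5Δ* replicate 2, to 1 without *snf2Δ* replicate 1 or *snf5Δ* replicate 1, and to 3 without *snf5Δ* replicate 3.

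**Figure D3:**
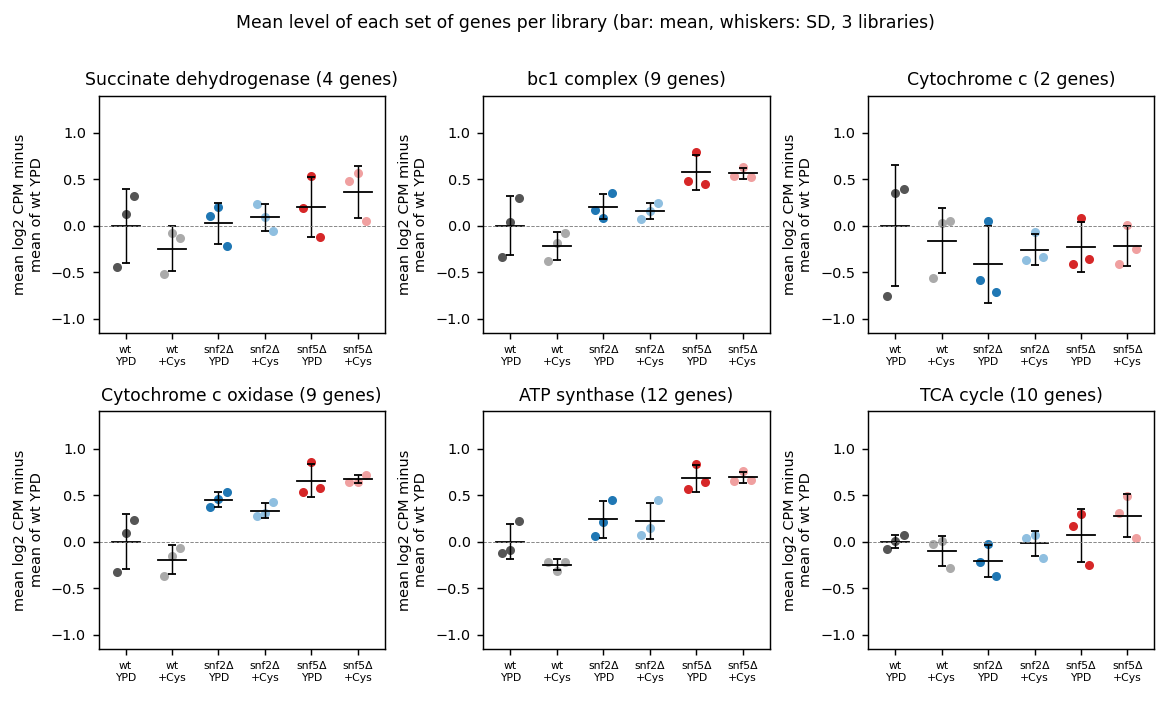
Mean log2 CPM of the genes of each complex or pathway in each library, given as the difference from the mean of the 3 wt YPD libraries (vertical axis) for the 6 groups (horizontal axis). Points are libraries, bars are means and whiskers are SDs over 3 libraries. For the 12 ATP synthase genes all *snf5Δ* points lie above all wt points, while for the 10 TCA cycle genes the *snf5Δ* and wt YPD points overlap.

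The libraries of a group did not differ gene by gene alone. In wt YPD, replicate 1 lay below its group mean by 0.25 on the log2 scale on average over the 46 genes, with 8 of 46 genes above that mean, and replicate 3 lay above it by 0.22 with 40 of 46 above. In *snf5Δ* YPD, replicate 2 lay above its group mean by 0.21 with 44 of 46 genes above it, and replicate 3 lay below it by 0.15 with 10 above. The median coefficient of variation of the 46 genes within a group was 21.4% in wt YPD and 12.3 to 21.4% over the 6 groups. Without wt replicate 1 in both media, an alternative added after the data were seen, 20 genes were called in *snf5Δ* in YPD, 33 in *snf5Δ* in +Cys and 14 in *snf2Δ* in +Cys, all higher. Over all genes that fit called 680 higher and 686 lower, 547 and 553, and 417 and 564 in these comparisons, and 401 and 504 in *snf2Δ* in YPD. In *snf2Δ* in YPD 2 of the 46 genes were then called higher and 3 lower, in place of 5 and 2, so the balance of directions turned.

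After cysteine no call was made among the 46 genes unless libraries were paired. In the edgeR fit 0 of 46 were called higher or lower after 30 min in +Cys in wt, *snf2Δ* or *snf5Δ*, and DESeq2 and limma on TPM also called 0. Without pairing, unadjusted p-values under 0.05 were found for 5 genes in wt and 0 in each mutant, against 6.13% of all genes in wt, 4.52% in *snf2Δ* and 4.19% in *snf5Δ*. Over all genes 0.208% were called higher and 0.226% lower in wt, 0.0521% and 0.591% in *snf2Δ*, and 0.0695% and 0.834% in *snf5Δ*. The median log2 fold change of the 46 genes was -0.21 in wt, where 6 of 46 values were positive, 0.03 in *snf2Δ* and 0.04 in *snf5Δ*. Whether the mutants responded to cysteine unlike wt was tested by an interaction, which was called for 0 of 46 genes in either mutant, beside 0% higher and 0.0869% lower over all genes for *snf2Δ* and 0% and 0.33% for *snf5Δ*. DESeq2 and limma also called 0 of these differences, and 1 gene in each mutant had an unadjusted p under 0.05 (2% and 2.66% over all genes), *ATP20* in *snf2Δ* and *COX6* in *snf5Δ*. The median difference was 0.22 for *snf2Δ* and 0.27 for *snf5Δ*, with 42 of 46 values positive in each, and these comparisons share the wt libraries.

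Same-numbered YPD and +Cys libraries deviated from their group means together in every strain, so a fit with the replicate number as a block within each strain was also made. The pairing was least clear in *snf5Δ*, where same-numbered libraries correlated at r = 0.416, 0.24 and 0.573 over the 46 genes. There YPD replicate 1 correlated more closely with +Cys replicate 2 (r = 0.465) than with its own number. In that blocked fit 5 genes fell in wt after cysteine, *COX4* (-0.45 ± 0.12), *ACO1* (-0.44 ± 0.13), *SDH2* (-0.40 ± 0.11), *QCR7* (-0.39 ± 0.09) and *COR1* (-0.29 ± 0.08), by less than 1.5-fold each. This fit called more genes throughout, with 3.09% of all genes higher and 3.13% lower in wt, 2.17% and 3.02% in *snf2Δ*, and 1.56% and 2.03% in *snf5Δ*. In *snf5Δ*, *CIT1* (0.40 ± 0.11) and *IDH1* (0.36 ± 0.08), enzymes of the first steps of the cycle, rose, and 0 genes were called in *snf2Δ*. *SDH2* stood at 30.3, 55.2 and 54.7 CPM in wt in YPD and at 27.0, 39.3 and 39.0 in +Cys, lower in each pair of same-numbered libraries. *COX4* stood at 45.6, 57.5 and 75.0 CPM in wt in YPD and 39.5, 42.5 and 47.1 in +Cys, also lower in each pair. *CIT1* in *snf5Δ* stood at 189.8, 186 and 116 CPM in YPD and 232, 248 and 168 in +Cys, higher in each pair. The blocked fit also called the response of *ACO1* in *snf5Δ* higher than in wt by 0.74 ± 0.18, beside 0.417% of all genes called higher and 1.04% lower, and 0 differences in *snf2Δ*, beside 0.0869% and 0.469%. Unadjusted p-values under 0.05 were found in this fit for 24 of the 46 genes in wt (20.6% of all genes), 9 in *snf2Δ* (18.7%) and 9 in *snf5Δ* (13.7%). For the differences in response they were found for 15 genes in *snf2Δ* (8.27%) and 18 in *snf5Δ* (11.4%). *ACO1* in wt went from 287, 241 and 254 CPM in YPD to 263, 209 and 123 in +Cys, a drop largest in replicate 3, and in *snf5Δ* from 236, 295 and 176 to 301, 354 and 213.

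The 46 genes hold 2 pairs of isoforms, one gene of each known for aerobic growth and the other for low oxygen. Neither cytochrome c gene rose in any mutant comparison. *CYC1* (YJR048W), the aerobic form, stood at 19.2, 15.9 and 18.5 CPM in wt in YPD and at 8.36, 13.3 and 8.30 in *snf5Δ* (-0.79 ± 0.24, adjusted p = 0.0232). The groups did not overlap, but the call was lost without wt replicate 1, wt replicate 3, *snf5Δ* replicate 1 or *snf5Δ* replicate 3, and when scaled by library totals. It was also lost on RSEM expected counts, by limma on TPM and without the libraries with over 40% of reads in several places. In *snf2Δ* *CYC1* stood at 10.2, 15.7 and 12.3 CPM (-0.52 ± 0.24, no call). In +Cys it stood at 18.3, 12.6 and 15.9 CPM in wt, 13.5, 12.5 and 13.6 in *snf2Δ* and 7.03, 13.5 and 11.2 in *snf5Δ*, with no call. *CYC7* (YEL039C), the low-oxygen form, stood at 5.86, 35.0 and 32.2 CPM in wt in YPD, 14.2, 23.3 and 9.85 in *snf2Δ* and 22.1, 28.3 and 24.3 in *snf5Δ*. The low value of wt replicate 1 recurred in the wt +Cys libraries (8.17, 27.9 and 22.9 CPM), and *CYC7* had no call in any comparison.

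*COX5A* and *COX5B* encode interchangeable subunits of cytochrome c oxidase. *COX5A*, the aerobic form, stood at 39.7, 42.4 and 70.2 CPM in wt in YPD and at 69.0, 89.9 and 79.2 in *snf5Δ* (0.65 ± 0.21, adjusted p = 0.0281). Wt replicate 3 overlapped the *snf5Δ* range, and the call was lost without wt replicate 1, wt replicate 2 or *snf5Δ* replicate 2. In +Cys *COX5A* stood at 37.9, 36.1 and 45.98 CPM in wt and 74.8, 84.3 and 68.6 in *snf5Δ* (0.92 ± 0.21, adjusted p = 0.00424), without overlap. In *snf2Δ* it stood at 47.0, 65.5 and 74.7 CPM in YPD and 44.1, 49.8 and 56.5 in +Cys, with no call. *COX5B*, the low-oxygen form, stood at 43.3, 69.2 and 51.8 CPM in wt in YPD, 54.0, 67.4 and 39.4 in *snf2Δ* and 61.5, 54.3 and 51.1 in *snf5Δ*, and the 3 ranges overlapped. In +Cys it stood at 53.4, 74.5 and 59.7 CPM in wt, at 58.7, 63.5 and 43.1 in *snf2Δ* and at 55.6, 56.0 and 45.8 in *snf5Δ*, again without a call.

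**Figure D4:**
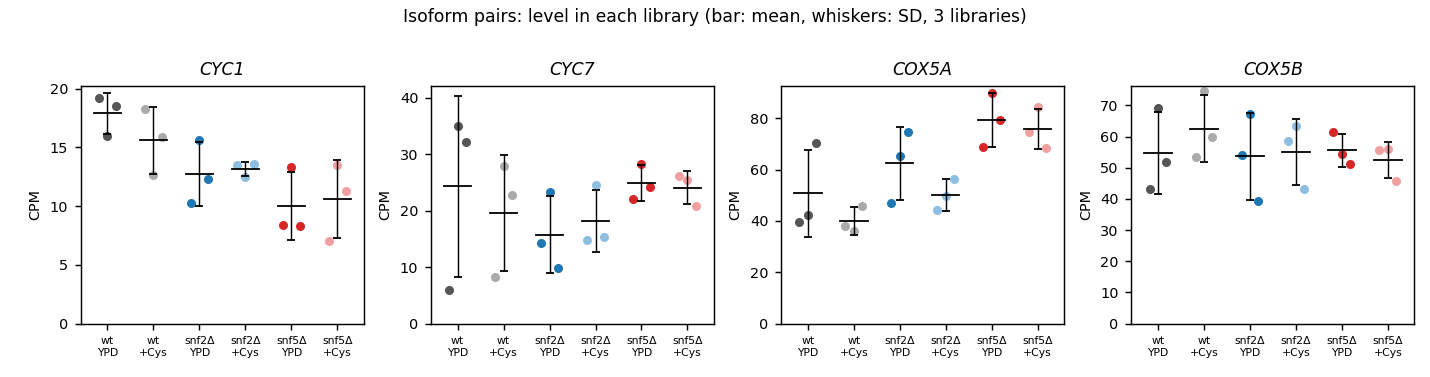
Level in CPM (vertical axis, from 0) of the isoform genes *CYC1*, *CYC7*, *COX5A* and *COX5B* in each library of the 6 groups (horizontal axis), where points are libraries, bars are means and whiskers are SDs over 3 libraries. *CYC1* is lower in the *snf5Δ* YPD libraries than in any wt YPD library, *COX5A* is higher in *snf5Δ* than in wt in +Cys, and the *COX5B* groups overlap.

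Levels were compared between genes on the TPM scale, which divides by transcript length, and only for the 21 of 46 genes with a coding sequence of at least 600 bases. In wt in YPD the beta and alpha subunits of the F1 head led, with *ATP2* at 98.5 ± 33.0 TPM (mean ± SD, 3 libraries) and *ATP1* at 56.3 ± 17.1. They were followed by *CIT1* at 33.9 ± 10.9, *ATP3* at 32.8 ± 8.87, *IDH2* at 29.1 ± 7.58 and *ACO1* at 28.7 ± 3.93. The lowest levels were those of *RIP1* at 14.8 ± 6.23 and *SDH1* at 11.3 ± 5.51. Of the 20 pairs of neighbours in this order, 19 overlapped over their 3 libraries, and *ATP1* and *CIT1* were the pair that did not. For short genes the deposited TPM values were not used, since the STAR counts exceeded the RSEM expected counts by up to 15.2-fold for *ATP18*, against 1.12-fold for *ACO1*. Among the 21 genes this ratio varied too, at 1.9 for *ATP4* and 1.75 for *RIP1* against 1.25 for *SDH1*. Its part in the order of these genes was not tested.

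Gene length moved with the calls. Of the 25 genes with a coding sequence under 600 bases, 16 rose in *snf5Δ* in YPD (median log2 fold change 0.65), and of the 21 longer genes 8 rose (median 0.37). Over all nuclear coding genes tested, 14.7% of 844 short genes and 11.9% of 4669 longer ones were called higher in that comparison. In +Cys 21 of 25 short and 12 of 21 longer genes rose in *snf5Δ*, with 13.7% and 9.36% over all genes. In *snf2Δ* 4 of 25 short and 1 of 21 longer genes rose in YPD (11.4% and 7.45% over all genes), and 13 of 25 and 5 of 21 in +Cys (12.2% and 7.11%). All 10 TCA cycle genes are among the longer ones. Of these 10, 2 rose in *snf5Δ* in YPD and 3 in +Cys, and 1 rose in *snf2Δ* in each medium. Length was therefore mixed with the complex or pathway of a gene in these counts, and the part of either was not tested.

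The known activators *HAP4* and *HAP1* were called higher in none of the 4 mutant comparisons. *HAP4*, the regulated subunit of the CCAAT-binding complex, stood at 286, 467 and 499 CPM in wt in YPD, 196, 202 and 76.7 in *snf2Δ* and 252, 272 and 98.3 in *snf5Δ*. It fell in *snf2Δ* (-1.40 ± 0.47, adjusted p = 0.0448), a call that was lost when scaled by library totals, and in *snf5Δ* it had no call (-0.99 ± 0.46). In +Cys *HAP4* fell in *snf2Δ* (-1.43 ± 0.47, adjusted p = 0.04) and was at -0.89 ± 0.46 in *snf5Δ* with no call. Replicate 3 of both mutants was the lowest of its group in each medium, and wt replicate 1 was the lowest of the wt libraries. *HAP1*, which carries a transposon insertion in strains of this background, fell in *snf2Δ* by 0.43 in YPD and 0.51 in +Cys on the log2 scale, and had no call in *snf5Δ* or when scaled by library totals. *ROX1*, the repressor of low-oxygen genes, rose in *snf5Δ* in YPD (1.48 ± 0.17, adjusted p = 7.73e-06) and in +Cys (1.27 ± 0.16, adjusted p = 3.46e-05), and in *snf2Δ* in +Cys (0.65 ± 0.16, adjusted p = 0.0105). Its levels in YPD were 41.0, 31.3 and 40.3 CPM in wt, 59.4, 52.2 and 39.0 in *snf2Δ* and 109, 108 and 96.4 in *snf5Δ*.

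Genes that yeast expresses when glucose runs low were followed because log-phase cultures can differ in remaining glucose. The summed level of 10 such genes was 823, 2033 and 1703 CPM in wt in YPD, 999, 995 and 539 in *snf2Δ* and 1205, 1074 and 629.6 in *snf5Δ*. In +Cys the sums were 872, 2112 and 1380.0 CPM in wt, 1139, 1109 and 825 in *snf2Δ* and 1164, 1221 and 702 in *snf5Δ*. The lowest wt library, replicate 1 in both media, was also the lowest of the wt libraries over the 46 genes, and no mutant library exceeded the highest wt library of its medium. Most of this sum came from *HXK1*, *GLK1* and *SUC2*, and the order differed without them. The other 7 genes then summed to 62.9, 167 and 177 CPM in wt, 179, 196 and 95.6 in *snf2Δ* and 119, 111 and 90.7 in *snf5Δ* in YPD. In +Cys they summed to 63.2, 127 and 116 CPM in wt, 150.5, 178 and 123 in *snf2Δ* and 109, 121 and 92.7 in *snf5Δ*, so *snf2Δ* replicates 1 and 2 lay above every wt library in both media, and no *snf5Δ* library did. In *snf5Δ* in YPD 0 of the 10 genes were called higher and 1, *SUC2* (invertase), fell by 2.19 on the log2 scale. The paper links Swi-Snf to activation of genes of carbon source use. In the mutants, loss of the complex and remaining glucose can therefore not be told apart in these levels. The part of the 10 genes in the differences of the 46 genes was not tested.

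**Figure D5:**
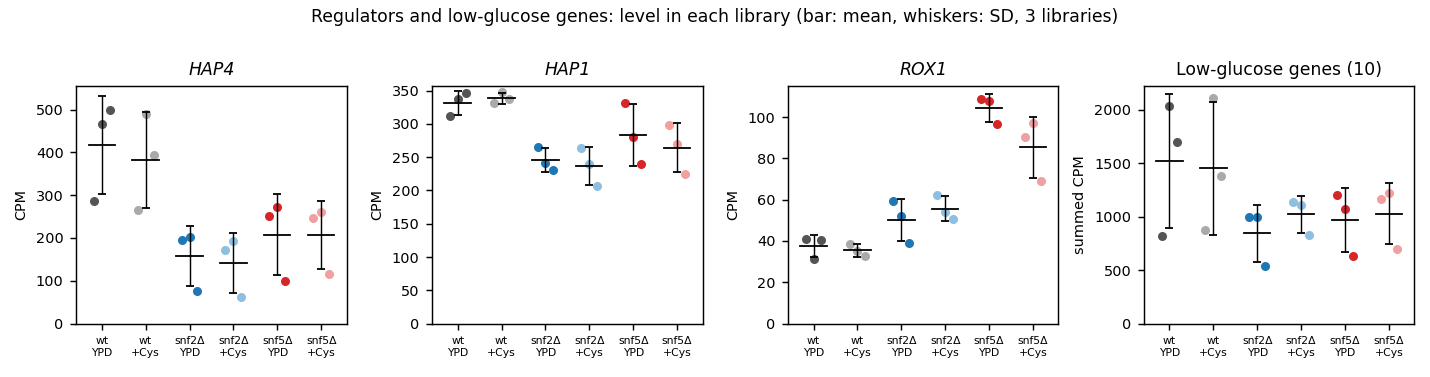
Level in CPM (vertical axis, from 0) of *HAP4*, *HAP1* and *ROX1*, and the summed CPM of 10 low-glucose genes, in each library of the 6 groups (horizontal axis), where points are libraries, bars are means and whiskers are SDs over 3 libraries. *ROX1* is higher in *snf5Δ* than in wt, while the *HAP4* means are lower in both mutants, and wt replicate 1 is the lowest wt library for *HAP4* and the low-glucose sum.

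Genes that work beside the 46 were counted by lists, which are to be read against the 12% of all genes called higher and 15% called lower in *snf5Δ* in YPD. Of 13 mitochondrial carriers, 7 rose in *snf5Δ* in YPD and 0 fell, with a median log2 fold change of 0.63. The carriers with the lowest p were *AAC1*, a minor ADP/ATP carrier (2.94), *ODC1*, an oxodicarboxylate carrier (1.51), and *DIC1*, the dicarboxylate carrier (1.12). In *snf2Δ* in YPD 5 carriers rose and 1 fell, with *AAC1* at 2.10, *ODC1* at 1.43 and *DIC1* at 1.09. Of 9 further subunits and partners of the complexes, 3 rose and 2 fell in *snf5Δ*. *ATP19* (1.07), a small ATP synthase subunit, *INH1* (1.14), the ATPase inhibitor, and *SHH3* (3.24), a homolog of *SDH3*, rose, while *COX26* (-2.98) and *STF2* (-1.93) fell. Of 35 assembly factors 4 rose and 0 fell, a share near that over all genes, namely *CYC3* (0.51), the heme lyase of cytochrome c, *PET100* (0.68), *SDH7* (0.71) and *SDH8* (0.50). *COX26*, *STF2* and *SDH8* were named after their values were seen.

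Of 11 dehydrogenases that feed the chain or the cycle, 4 rose and 1 fell in *snf5Δ* in YPD. The external NADH dehydrogenase genes went in opposite directions, *NDE1* at -1.27 ± 0.24, adjusted p = 0.000859 and *NDE2* at 2.09 ± 0.50, adjusted p = 0.00557. *GUT2*, the mitochondrial glycerol-3-phosphate dehydrogenase, rose (0.99), as did *LPD1* (0.38) and *PDX1* (0.35), which were named after their values were seen. In the lists that follow, the share called higher was under the 12% over all genes. Of 11 other TCA cycle isozymes and partners 1 rose, *KGD4* (0.65), and 0 fell. Of 12 regulators 1 rose, *ROX1*, and 1 fell, *SNF1* (-0.97), the kinase of glucose derepression. Of 8 heme synthesis genes 0 rose and 1 fell, *HEM13* (-0.99), a call that was lost when scaled by library totals. Of 6 low-oxygen genes tested, which include *CYC7* and *COX5B*, 3 fell, *HEM13*, the cell wall mannoprotein gene *TIR1* (-4.79) and the translation factor gene *ANB1* (-1.74), and 0 rose. Of 7 mitochondrially encoded genes tested 0 were called by edgeR, and of 67 nuclear genes for mitochondrial ribosomal proteins 1 rose and 1 fell, with a median of 0.05.

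In the other mutant comparisons the all-gene shares called higher and lower were 9.73% and 11.3% in *snf5Δ* in +Cys, 7.89% and 11.8% in *snf2Δ* in YPD, and 7.73% and 11.6% in *snf2Δ* in +Cys. In *snf5Δ* in +Cys there were 6 higher and 0 lower of the carriers, 3 higher and 2 lower of the further subunits, 5 higher and 0 lower of the assembly factors and 3 higher and 1 lower of the dehydrogenases. The low-oxygen genes had 0 higher and 3 lower, the heme genes 1 higher and 1 lower, the low-glucose genes 1 higher and 1 lower, the regulators 1 higher and 1 lower, the other TCA genes 1 higher and 0 lower and the mitochondrial ribosomal proteins 3 higher and 0 lower. In *snf2Δ* in YPD the assembly factors had 5 higher and 1 lower, the dehydrogenases 0 higher and 2 lower, the further subunits 1 higher and 1 lower, the regulators 0 higher and 3 lower, the heme genes 0 higher and 3 lower and the low-oxygen genes 0 higher and 3 lower. The low-glucose genes had 1 higher and 1 lower, the other TCA genes 1 higher and 0 lower, the mitochondrially encoded genes 1 higher and 0 lower and the mitochondrial ribosomal proteins 1 higher and 1 lower. In *snf2Δ* in +Cys the carriers had 3 higher and 1 lower, the assembly factors 3 higher and 0 lower, the regulators 1 higher and 3 lower and the low-oxygen genes 0 higher and 4 lower. The further subunits had 2 higher and 1 lower, the dehydrogenases 1 higher and 1 lower and the heme genes 0 higher and 2 lower. The low-glucose genes, the other TCA genes and the mitochondrially encoded genes each had 1 higher and 0 lower. *NDE1* fell in all 4 mutant comparisons, by 1.27, 0.92, 1.12 and 0.91 on the log2 scale in *snf5Δ* YPD, *snf5Δ* +Cys, *snf2Δ* YPD and *snf2Δ* +Cys. No gene of any list was called in the 3 responses to cysteine by edgeR.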

How the data were processed

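RNA from BY4741, *snf2Δ* and *snf5Δ* cells in YPD or +Cys (6 groups, 3 libraries each, 18 in all) was sequenced as paired ends after ribosomal depletion. Per the labels and the study's methods, the authors demultiplexed with bcl2fastq 2.18, mapped to sacCer3 and Ensembl genes in STAR 2.7.3a, and deposited STAR read counts per gene. They also deposited RSEM 1.3.0 expected counts and TPM, which divide by transcript length. Whether strand was used in counting is not given in the sources used here. The 46 genes do not overlap other genes in the RefSeq annotation. The lines for unmapped, multi-place, ambiguous and gene-free reads were left out of library sizes. They held 14.4 to 78.2% of reads.

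The count test was edgeR 4.0.16 (glmQLFit, glmQLFTest) in R 4.3.3 on the deposited counts, with filterByExpr, TMM scaling and 1 fit over the 6 groups (12 residual degrees of freedom), and p-values were adjusted by Benjamini-Hochberg over 5757 genes. Calls had an adjusted p under 0.05. Values after ± are standard errors, except for TPM, where they are SDs. Alternatives were RLE factors, library totals, no filter, a filter of 10 counts in every library, DESeq2 1.42.0, limma 3.58.1 on log2(TPM + 1) and log2(TPM + 0.1) at a mean TPM of at least 1, RSEM expected counts rounded to whole numbers, the compared groups alone, replicate blocks, and leaving out libraries. Fold changes on the log2(TPM + pseudocount) scale understate low genes. Counting error sets a floor on precision, and reads are not independent molecules.

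The members, lists and tests were chosen with earlier results of these data known. Leaving out both wt libraries numbered 1 was added after the data were seen. Per-library values were printed for the member with the lowest p in each of the 6 complexes or pathways in *snf5Δ* in YPD, the 3 called members with the largest change in each mutant comparison and both isoform pairs, and values for up to 3 called genes per list. *CYT1*, *COX4* and *CIT1* were added after their values were seen. Within a strain, same-numbered YPD and +Cys libraries deviated together over all genes (r = 0.609, 0.608 and 0.490 in wt, 0.571, 0.459 and 0.787 in *snf2Δ*, and 0.492, 0.224 and 0.513 in *snf5Δ*), so these numbers pair libraries within a strain.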

Additional observations from a re-analysis of the deposited data

How the results depend on the processing

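Fits with a single library left out are given further below and are not part of the ranges here. Under all the other settings, the counts of called genes in *snf5Δ* against wt stayed within 1.5 times of the value given. They were 20 to 36 in YPD (25 in the fit described) and 31 to 42 in +Cys (33). So did the counts of *snf2Δ* in +Cys, at 12 to 23 (18). The highest of these counts came from settings that called many genes of any kind higher, 1945 of 5757 (33.8%) with library totals in *snf5Δ* in YPD, and 3452 higher against 105 lower with limma on log2(TPM + 1) in *snf5Δ* in +Cys. *snf2Δ* in YPD did not, with 7 in the fit described, 18 with library totals, 1 with limma on log2(TPM + 1) or log2(TPM + 0.1), 0 with limma over all genes, 4 on RSEM expected counts, 3 with the compared groups alone and 1 without the libraries with over 40% of reads in several places (1 *snf2Δ* library left). For *snf5Δ* against *snf2Δ* in YPD, 5 calls became 3 with library totals, 9 with DESeq2, 0 with limma on either pseudocount or over all genes, 2 on RSEM expected counts, 1 with the compared groups alone, 10 with a replicate block and 0 without the multi-place libraries, where 2 libraries met 1 and the median of the 46 genes rose from 0.32 to 0.54. In +Cys, 5 became 3 with library totals, 9 with DESeq2, 0 with limma on either pseudocount or over all genes, 1 on RSEM expected counts, 1 with the compared groups alone and 11 with a replicate block. With a replicate block across strains the mutant comparisons had 10 (*snf2Δ* YPD), 28 (*snf5Δ* YPD), 23 (*snf2Δ* +Cys) and 35 (*snf5Δ* +Cys) calls. Over all genes that fit called 613 higher and 931 lower, 855 and 1104, 634 and 942, and 715 and 942, in this order. Without the block the all-gene counts were 454 and 682, 689 and 865, 445 and 668, and 560 and 652. Same-numbered libraries of mutant and wt stood at r from -0.31 to 0.33 over all genes. For *snf5Δ* against *snf2Δ* these r were 0.44, 0.082 and 0.55 in YPD and 0.46, 0.066 and 0.57 in +Cys, positive throughout, and 4 of 6 libraries in each medium correlated best with their own number. As 1 pair in each medium was under 0.1 and no label names a shared batch, these numbers were not taken to pair strains. The block within strain gave 5 calls in place of 0 for cysteine in wt, 2 for cysteine in *snf5Δ* and 1 for the *snf5Δ* difference in response, and changed no other count of cysteine calls. The cause of these shifts was not tested.

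With each library left out in turn, the counts ran from 3 to 8 for *snf2Δ* in YPD, 17 to 27 for *snf5Δ* in YPD, 8 to 18 for *snf2Δ* in +Cys, 30 to 32 for *snf5Δ* in +Cys, 0 to 7 for *snf5Δ* against *snf2Δ* in YPD, 0 to 5 in +Cys, and 0 to 0 for cysteine in each strain and for the differences in response. Of the 93 values called for single genes, 0 turned direction. Over the other settings 1138 of 1292 such values stayed called, and 435 of 558 with a library left out. At 13 or more counts per gene and library, small changes in the genes with the fewest counts, such as *CYC1*, were at the limit of what this depth resolves. Limma on TPM moved the median of all genes by 0.17 (*snf2Δ*) and 0.45 (*snf5Δ*) in YPD and by 0.44 and 0.75 in +Cys, so fold changes on that scale were read against those medians.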
